A study of Homo sapiens with 12 samples.

Results

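The genes described here are 10 of the 38516 genes in the deposited table: the D-type cyclins CCND1, CCND2 and CCND3, the E-type cyclins CCNE1 and CCNE2, their kinases CDK4, CDK6 and CDK2, and the downstream pair RB1 and E2F1. They were taken by symbol, as a family with textbook roles in the G1 phase of the cell cycle, and the set was selected on a measured value as well, the RPKM of CCND2, which differed strongly between control cells of the lines. The contrast between lines in control libraries is therefore given as a description with no test. All 10 had a row in the table, and all 10 passed the filter on low values, an RPKM (a read number divided by the exon length of the gene and by the depth of its library) of 0.5 or more in at least 3 libraries. CCND2 passed only through its 6 KYSE150 libraries.

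RNA sequencing covered 12 libraries of KYSE150 and KYSE510, established cell lines of human esophageal squamous cell carcinoma (ESCC) grown in RPMI-1640 with 10% FBS. In both lines, control cells were set beside cells with HCP5, a long non-coding RNA gene, silenced, which made 4 groups of 3 replicates. The title of the series connects HCP5 to apoptosis and to transcriptional regulation by c-Myc. The labels do not say whether replicates were separate cultures, so p-values measure the spread between these libraries, which may be technical.

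Libraries held 20035025 to 28202422 reads assigned to genes, and all 3 silenced KYSE150 libraries were deeper than all 3 KYSE150 controls. HCP5 itself averaged 0.770 RPKM in KYSE150 controls and 0.437 in silenced cells, and 1.39 and 0.801 RPKM in KYSE510; it was lower in 6 of 6 same-numbered pairs but did not pass the limma test in either line (log2 change -0.45, adjusted p 0.267, and -0.53, adjusted p 0.646). In the mean over lines HCP5 had a log2 change of -0.49 (limma adjusted p 0.185), which passed in the fit that takes the replicate number as a block (0.0295). MYC averaged 7.47 and 8.98 RPKM in control and silenced KYSE150 and 67.5 and 61.4 RPKM in KYSE510; its log2 change in KYSE150, 0.27, passed in the fit with the block (limma adjusted p 0.0439) and did not without it (0.620). Of the markers listed for the squamous lineage, 8 were above the filter, with KRT5 at 607, 925, 242 and 389 RPKM in control and silenced KYSE150 and control and silenced KYSE510. Of 7 markers listed for other cell types 2 were above it, CD68 and COL1A1, and COL1A1 averaged at most 0.630 RPKM in a group.

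In G1, growth signals raise D-type cyclins, which bind and activate CDK4 or CDK6. These kinases start to phosphorylate the retinoblastoma protein RB1, which releases E2F transcription factors, and E2F factors switch on E-type cyclins and genes of DNA synthesis. Cyclin E with CDK2 then completes RB1 phosphorylation and drives entry into S phase. CCND1 is a gene often amplified in squamous carcinomas of the esophagus, and MYC and E2F proteins bind E-box and E2F words in promoters.

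RefSeq promoter windows, 250 bases before to 50 bases after the gene start on GRCh38.p14, were held for 6 of the 10 genes: CCND3, CCNE1, CDK4, CDK6, RB1 and E2F1. They were searched on both strands for the E2F words TTTCCCGC, TTTCGCGC, TTTGCCGC and TTTGGCGC and for the E-box CACGTG, which reads the same on both strands. Stretches of 30 bases around the matches are shown for E2F1 and CDK4, whose windows held words before the gene start; capitals mark the words, and all stretches are 5′ to 3′ on the gene's strand. The E2F1 stretch lies at chr20:33686393-33686422, minus strand, and the CDK4 stretches at chr12:57752499-57752528 and chr12:57752394-57752423, minus strand.
E2F1: tttcGCGGCAAAaaggaTTTGGCGCgtaaa
CDK4, distal: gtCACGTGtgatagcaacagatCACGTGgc
CDK4, proximal: atgggtggcggtCACGTGcccagaacgtcc

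In E2F1 the words start 33 and 20 bases before the gene start, and the first of them is read on the reverse strand. In CDK4 the 3 E-boxes start 216, 196 and 101 bases before it. The CDK4 start used here is that of RefSeq, and these stretches lie inside the span of CDK4 in the deposited table, 57747727 to 57756013. The CDK6 window held 1 E-box, which lies after the gene start, and the windows of CCND3, CCNE1 and RB1 held neither kind of word. Among all 35116 promoters of the same length, 3.31% held an E2F word and 7.26% the E-box. These matches describe letters, not bound sites, and binding was not measured here.

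CCND1 was the most abundant of the 10 genes per length in all 4 groups and CDK4 was the next, with no overlap between their libraries. The lines parted below that. In KYSE150, CCND2 stood next in both conditions and CCNE1 was the lowest, whereas in KYSE510 CCND2 was the lowest and CDK2 followed CDK4. Neighbours in this order whose libraries overlapped were E2F1, CDK6 and CCNE2 in KYSE150 controls, CDK6 and E2F1 in silenced KYSE150, and E2F1, CCNE1 and CCNE2, as well as CCND3 and CDK6, in both KYSE510 groups.

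**Figure D1:**
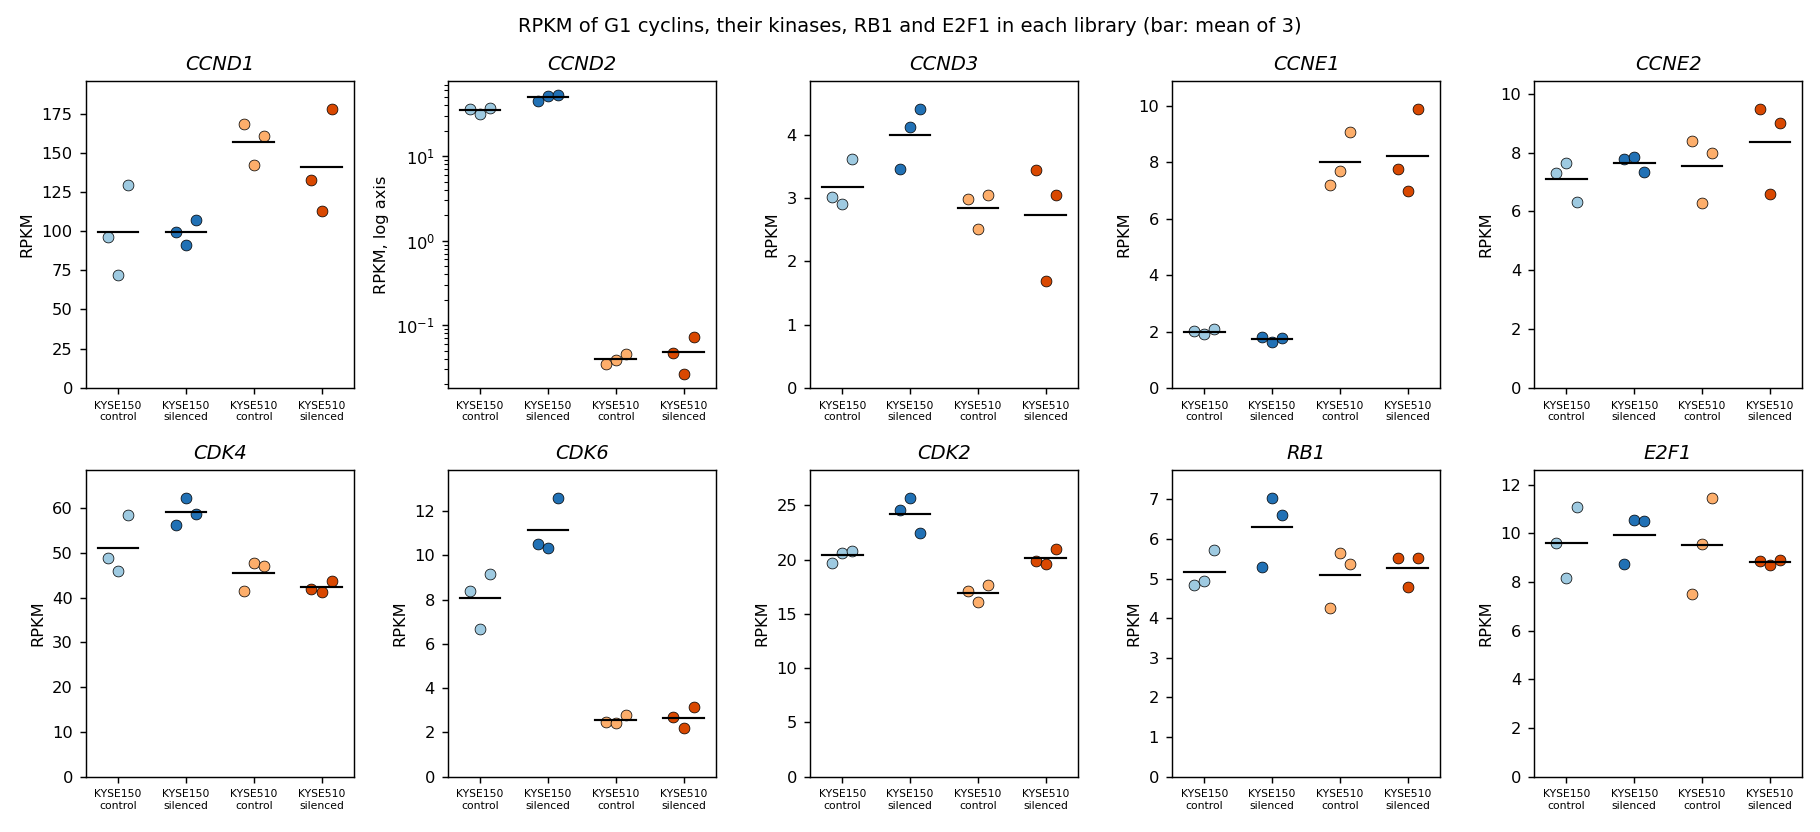
RPKM of each gene in every library, by line and condition; each point is a library and each bar a group mean, with a logarithmic axis for CCND2 only. CCND2 lies near 0.04 RPKM in KYSE510 and above 31 RPKM in KYSE150, and CCNE1 and CDK6 separate the lines in opposite directions.

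Among the D-type cyclins, CCND2 had the widest gap between the lines. CCND2 (chromosome 12, 4273772 to 4305350, plus strand, GRCh38) had 36.1, 31.8 and 36.7 RPKM in the KYSE150 controls and 45.0, 51.9 and 52.9 RPKM in the silenced KYSE150 libraries. In KYSE510 it had 0.0349, 0.0387 and 0.0457 RPKM in controls and 0.0466, 0.0265 and 0.0730 RPKM in silenced libraries. Every KYSE150 library lay above every KYSE510 library, and within KYSE150 every silenced library lay above every control, while the KYSE510 conditions overlapped.

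The KYSE510 values rest on 6, 7 and 9 reads in controls and 8, 4 and 13 reads in silenced cells, against 4667 to 10477 reads in KYSE150. Exact 95% Poisson intervals, which cover counting error only, ran from 0.0128 to 0.0759 RPKM for the first KYSE510 control. Mean RPKM in KYSE150 was 877 times that in KYSE510 among controls and 1026 times among silenced libraries. Fewer cells that make a transcript and less transcript per cell cannot be told apart in these bulk libraries.

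CCND2 was the 1 gene of the 10 that passed the test for silencing in KYSE150. It rose by 0.51 on the log2(RPKM + 0.5) scale (SE 0.087, limma, Benjamini-Hochberg adjusted p 0.0350), from 34.8 ± 2.69 to 49.9 ± 4.31 RPKM (SD, n = 3). In this comparison 89 of 17823 genes tested passed, 0.499%, and 0.376% passed as higher. In KYSE510 its log2 change was 0.02 (SE 0.087, limma adjusted p 0.995), on a scale where values this far below the pseudocount can hardly move. The difference of the 2 changes was -0.49 (SE 0.12), with an unadjusted p of 0.0022 and a limma adjusted p of 0.391, so it did not pass. These SEs share 1 estimate of spread over all 12 libraries, and the KYSE510 libraries add little spread so far below the pseudocount. The SE and p of the KYSE150 change can therefore understate the spread within KYSE150. With the KYSE150 libraries alone that change did not pass (limma adjusted p 0.189).

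The CCND2 call in KYSE150 was not stable. It held without KYSE150 control 3 (limma adjusted p 0.0268), KYSE150 silenced 1 (0.0406) or KYSE510 control 1 (0.0416), and with the replicate block (0.0279). It was lost without KYSE150 control 1 (limma adjusted p 0.124), control 2 (0.148), silenced 2 (0.145) or silenced 3 (0.162), and without KYSE510 control 2 (0.0590), control 3 (0.0620), silenced 1 (0.0636), silenced 2 (0.0508) or silenced 3 (0.0527). It was also lost with a pseudocount of 0.1 (0.104), with voom on recovered reads (log2 change 0.41, 0.0643) and with the KYSE150 libraries alone (0.189). With each library centred on its median the change was 0.38 and passed.

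The antisense gene CCND2-AS1 shares 126 of its 555 exon bases with CCND2. It averaged 6.37 RPKM in KYSE150 controls and 9.12 RPKM in silenced KYSE150, was at 0 in all KYSE510 libraries, and had a log2 change of 0.48 in KYSE150 (limma adjusted p 0.0991). The use of strand in counting is not given in the sources used here, so reads of the shared bases cannot be told apart.

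CCND1, the D-type cyclin of many epithelial cells, showed the opposite order of lines. It had 96.2, 72.0 and 129 RPKM in KYSE150 controls and 99.7, 91.2 and 107 RPKM in silenced KYSE150, and 169, 142 and 161 RPKM in KYSE510 controls and 133, 113 and 178 RPKM in silenced KYSE510. The KYSE150 libraries all lay at or below 129 RPKM, and silenced and control libraries overlapped in both lines. Its log2 change with silencing was 0.04 in KYSE150 (SE 0.20, limma adjusted p 0.950) and -0.18 in KYSE510 (SE 0.20, limma adjusted p 0.953). CCND1 lies on chromosome 11 from 69641087 to 69654474 on the plus strand and shares 497 bases, 10.3% of its exons, with ORAOV1 on the other strand.

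CCND3, the remaining D-type cyclin, was low in both lines. It had 3.02, 2.90 and 3.61 RPKM in KYSE150 controls, 3.46, 4.11 and 4.40 RPKM in silenced KYSE150, 2.98, 2.50 and 3.04 RPKM in KYSE510 controls and 3.44, 1.69 and 3.04 RPKM in silenced KYSE510. The second silenced KYSE510 library was the lowest of the 12, and conditions overlapped in both lines. Log2 changes with silencing were 0.29 in KYSE150 (limma adjusted p 0.439) and -0.09 in KYSE510 (limma adjusted p 0.977).

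Summed over the D-type cyclins, RPKM averaged 137 and 153 in control and silenced KYSE150 and 160 and 144 in KYSE510, so the sum was higher in KYSE510 among controls and lower among silenced libraries, and the libraries of the lines overlapped in both. The make-up of that sum differed. CCND1 held 71.6% of it in KYSE150 controls and 98.2% in KYSE510 controls, and CCND2 held 26.0% and 0.0250%.

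Within KYSE150 the CCND2 share averaged 32.6% in silenced libraries and the CCND1 share 64.8%. Each had an exact two-sided permutation p of 0.1, the smallest that 3 against 3 libraries allow, and an adjusted p of 0.333 over the 10 shares tested. In KYSE510 the CCND1 share was 98.1% in silenced libraries (exact permutation p 1). The CCND3 share stayed between 1.77% and 2.60% as a group mean in all 4 groups.

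**Figure D2:**
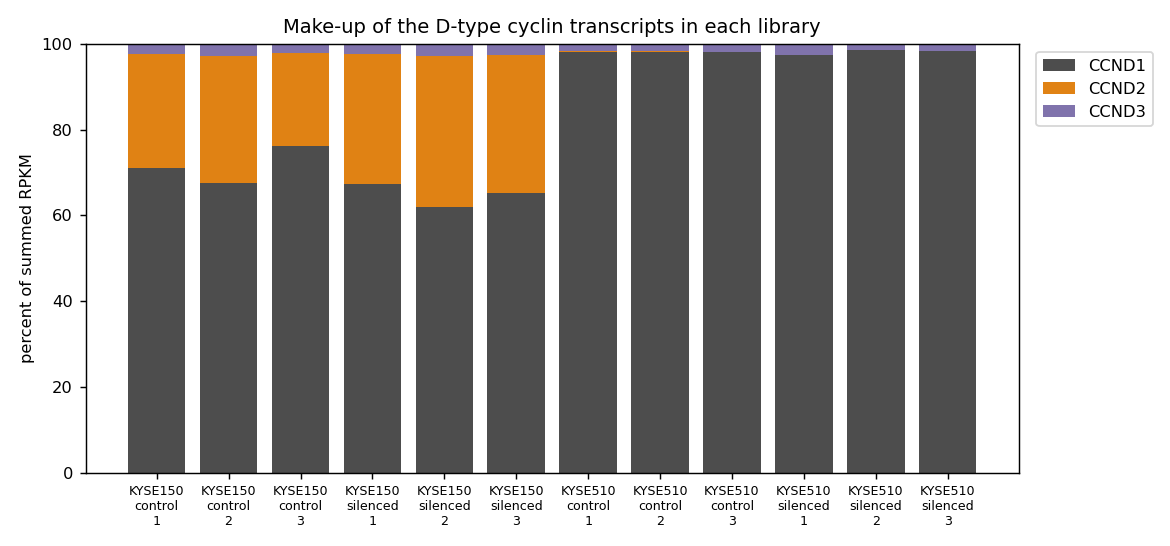
Share of the summed RPKM of CCND1, CCND2 and CCND3 held by each, in percent, for every library in stacked bars. KYSE510 bars are almost wholly CCND1, while CCND2 takes 26.0% on average in KYSE150 controls and 32.6% in silenced KYSE150.

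The E-type cyclins activate CDK2 at the end of G1. CCNE1 (chromosome 19, 29811898 to 29824308, plus strand) had 2.02, 1.91 and 2.07 RPKM in KYSE150 controls, 1.81, 1.64 and 1.77 RPKM in silenced KYSE150, 7.19, 7.71 and 9.09 RPKM in KYSE510 controls and 7.78, 7.001 and 9.90 RPKM in silenced KYSE510. All KYSE510 libraries lay above all KYSE150 libraries, and in KYSE150 every silenced library lay below every control. The change with silencing in KYSE150, -0.16 on the log2 scale (SE 0.12), did not pass (limma adjusted p 0.503), nor did that of 0.03 in KYSE510 (limma adjusted p 0.996). KYSE510 means were 4.0 times those of KYSE150 among controls and 4.73 times among silenced libraries.

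CCNE2, the second E-type cyclin, hardly separated the lines. It had 7.32, 7.63 and 6.33 RPKM in KYSE150 controls, 7.77, 7.85 and 7.35 RPKM in silenced KYSE150, 8.41, 6.27 and 7.98 RPKM in KYSE510 controls and 9.49, 6.59 and 9.02 RPKM in silenced KYSE510. Silenced libraries were higher in 6 of 6 same-numbered pairs, as in 6.7% of all genes, but the groups overlapped, and log2 changes of 0.11 and 0.13 did not pass (limma adjusted p 0.721 and 0.948). The gene shares 1629 bases, 37.0% of its exons, with INTS8 on the other strand. CCNE1 made up 22.1% of the summed E-type RPKM in KYSE150 controls and 51.5% in KYSE510 controls. It made up 18.5% in silenced KYSE150 (exact permutation p 0.1, adjusted 0.333) and 49.6% in silenced KYSE510 (exact permutation p 0.5).

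Of the kinases, CDK4 was the most abundant per length. It had 48.8, 45.9 and 58.4 RPKM in KYSE150 controls, 56.2, 62.4 and 58.8 RPKM in silenced KYSE150, 41.6, 47.7 and 47.0 RPKM in KYSE510 controls and 42.1, 41.3 and 43.6 RPKM in silenced KYSE510. Groups overlapped within each line. Log2 changes with silencing were 0.22 in KYSE150 (SE 0.094, unadjusted p 0.041, limma adjusted p 0.259) and -0.10 in KYSE510 (limma adjusted p 0.945), and the difference between them, -0.31, had an unadjusted p of 0.036 and a limma adjusted p of 0.400. Without KYSE150 control 3, the highest of its group, the KYSE150 change was 0.32 and passed (limma adjusted p 0.0448). That fit called 1291 of 17652 genes, and it was the 1 of 12 fits without 1 library that called CDK4 in KYSE150. Without KYSE150 control 2 the change was 0.14 (limma adjusted p 0.638), and over all alternative fits it went as low as 0.087. CDK4 (chromosome 12, 57747727 to 57756013, minus strand) shares 1369 bases, 43.2% of its exons, with TSPAN31 on the other strand, whose log2 changes were 0.01 and -0.05.

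CDK6, the partner kinase of CDK4, was the kinase that most separated the lines. It had 8.38, 6.65 and 9.17 RPKM in KYSE150 controls, 10.5, 10.3 and 12.6 RPKM in silenced KYSE150, 2.45, 2.41 and 2.80 RPKM in KYSE510 controls and 2.70, 2.18 and 3.12 RPKM in silenced KYSE510. Every KYSE150 library lay above every KYSE510 library, and every silenced KYSE150 library lay above every KYSE150 control. The log2 change of 0.45 in KYSE150 (SE 0.14, unadjusted p 0.0078) had a limma adjusted p of 0.152 without the replicate block and 0.0352 with it. The change was 0.05 in KYSE510 (limma adjusted p 0.990). CDK4 held 86.4% and 84.1% of the summed CDK4 and CDK6 RPKM in control and silenced KYSE150 (exact permutation p 0.2), and 94.7% and 94.1% in KYSE510 (exact permutation p 0.4).

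CDK2, the partner of the E-type cyclins, was the gene of the family whose libraries separated by condition in both lines. It had 19.7, 20.7 and 20.8 RPKM in KYSE150 controls, 24.5, 25.7 and 22.4 RPKM in silenced KYSE150, 17.1, 16.1 and 17.7 RPKM in KYSE510 controls and 19.9, 19.6 and 21.0 RPKM in silenced KYSE510. Every silenced library lay above every control of its line, a pattern that 237 genes, 1.33% of those tested, showed. The log2 change was 0.24 in each line (SE 0.071), with a limma adjusted p of 0.136 in KYSE150 and 0.440 in KYSE510. This equality depended on the processing. Over all alternative fits the KYSE150 change went as low as 0.113, against 0.199 at the lowest without 1 library. The KYSE510 change stayed at 0.205 or more and reached 0.292. Their difference, KYSE510 minus KYSE150, lay between -0.0533 and 0.155. In the main fit the change averaged over lines was 0.24 (SE 0.050, unadjusted p 0.00051). Its limma adjusted p was 0.0729 without the replicate block and 0.0373 with it.

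CDK2 lies on chromosome 12 from 55966769 to 55972784 on the plus strand, and an antisense gene, RP11-973D8.4, lies with all of its 565 exon bases inside CDK2 exons, 14.5% of them. That gene averaged 107 and 123 RPKM in control and silenced KYSE150 and 84.5 and 107 RPKM in KYSE510, and its reads came to 68.6% to 79.2% of the reads of CDK2. Its log2 changes were 0.20 (limma adjusted p 0.281) and 0.34 (limma adjusted p 0.374). Whether the same reads were counted for both genes was not tested.

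RB1, which holds E2F factors inactive until it is phosphorylated, had 4.83, 4.94 and 5.73 RPKM in KYSE150 controls, 5.29, 7.05 and 6.61 RPKM in silenced KYSE150, 4.25, 5.64 and 5.38 RPKM in KYSE510 controls and 5.53, 4.78 and 5.52 RPKM in silenced KYSE510. The conditions overlapped in both lines, and the lines overlapped with each other. Log2 changes of 0.26 in KYSE150 and 0.05 in KYSE510 did not pass (limma adjusted p 0.306 and 0.983).

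E2F1, the activator that RB1 restrains, had 9.61, 8.15 and 11.1 RPKM in KYSE150 controls, 8.73, 10.6 and 10.5 RPKM in silenced KYSE150, 7.49, 9.55 and 11.5 RPKM in KYSE510 controls and 8.88, 8.70 and 8.90 RPKM in silenced KYSE510. Conditions and lines overlapped throughout. Log2 changes with silencing were 0.05 (limma adjusted p 0.901) and -0.08 (limma adjusted p 0.975).

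As a family, 9 of the 10 genes had a log2 change above 0 with silencing in KYSE150, 1 of them past the adjusted threshold. That count depended on the scaling: CCND1, CCNE2 and E2F1 were below 0 with centred libraries, and CCND1 and E2F1 with voom. In KYSE150 the median log2 change of the 10 was 0.23 against 0.08 over all genes tested, and the latter was -0.05 after centring. In the same comparison 4 members had an unadjusted p under 0.05, as did 18.1% of all genes. Genes whose 3 silenced libraries lay above the 3 controls were CCND2, CDK6 and CDK2, 3 of 10 against 13.7% of all genes, and CCNE1 lay below, against 5.47%. In KYSE510 the median was 0.03 against -0.02, no member passed the limma test (7 of all genes did, 0.0393%, and 1 member had an unadjusted p under 0.05, as did 6.35% of all genes), and CDK2 was the 1 member without overlap, higher, against 5.22%. No member lay below in KYSE510, against 6.87%.

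For the mean over lines no member passed without the block (0.539% of all genes did, and 3 members had an unadjusted p under 0.05, as did 11.5% of all genes). For the difference between lines no gene of any kind passed limma's test (percentage called 0), although 2181 genes (12.2%), 2 members among them, had an unadjusted p under 0.05. By voom on recovered reads also, 0 members passed in KYSE510, in the mean over lines or in the difference. With the replicate block 2 members passed in KYSE150, CCND2 and CDK6, where 6.7% of all genes did, and 1 passed in the mean over lines, CDK2, where 2.74% did. None passed in KYSE510 with the block, where 0.112% did. The members called in KYSE150 numbered 0 to 2 over the fits without 1 library. The fit with 2, without KYSE150 control 3, called 1291 of 17652 genes. The fit without KYSE150 silenced 3, with 0 members, called 15 of 17637. Calls over all genes in KYSE150 numbered 67 higher and 22 lower, and 54 higher and 62 lower after centring.

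**Figure D3:**
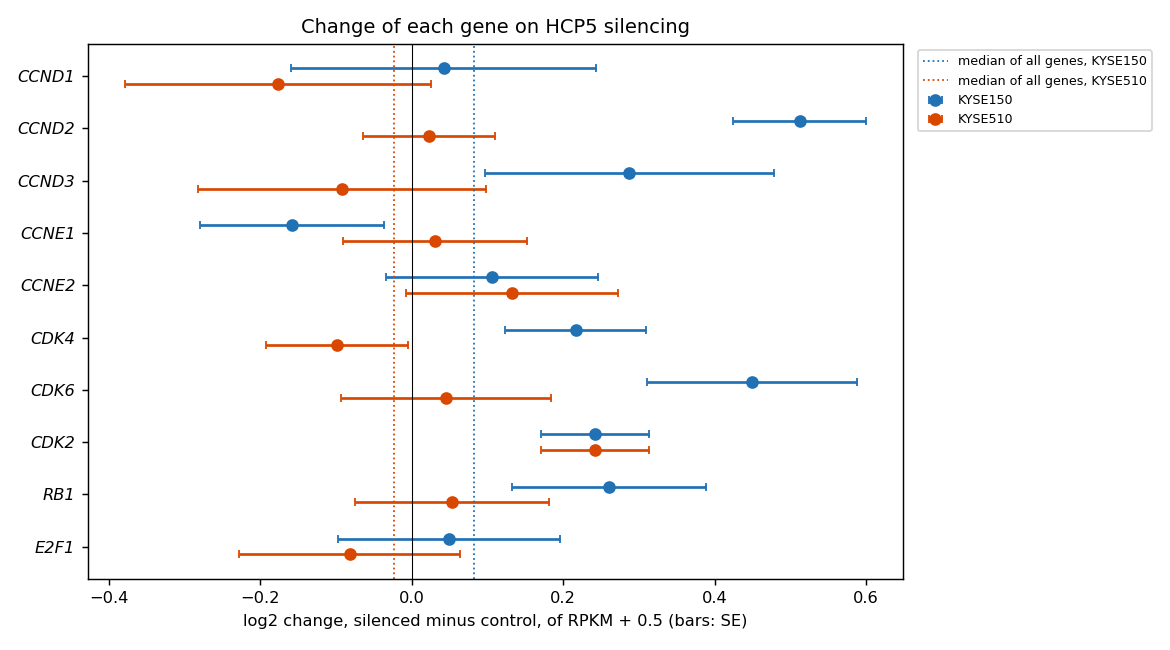
Change with silencing of HCP5 for each gene in each line, on the log2(RPKM + 0.5) scale, with bars of 1 SE from limma; dotted lines mark the median of all genes in each line. CCND2 in KYSE150, at 0.51, is the 1 value that passed the adjusted threshold, and CDK2 sits at 0.24 in both lines.

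The lines were compared among control libraries as a description only. CCND1 and CCNE1 were higher in every KYSE510 control than in every KYSE150 control, and CCND2, CDK6 and CDK2 were lower, 5 of 10 genes. Of all genes 64% had no overlap, 28.5% with KYSE510 higher and 35.5% with KYSE150 higher. These contrasts helped to choose the genes. The 6 silenced libraries, which that choice did not use, allowed a test of the same difference.

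CCND2 is left out of that test, since its line difference was used in the choice and it passed the filter through KYSE150 alone; its log2 difference among silenced libraries, KYSE510 minus KYSE150, is given as a description (-6.52). Of the other 9 genes 5 passed limma's test between lines, and 66.7% of the 16798 genes tested did, so the share is not above that of all genes. By direction, 2 were higher in KYSE510, against 24.7% of all genes, and 3 were lower, against 41.9%. Libraries of the lines did not overlap for 6 of the 9, against 69.7% of all genes, with KYSE510 higher in 2 (26.6%) and KYSE150 higher in 4 (43.2%). CCND1 (log2 difference KYSE510 minus KYSE150 0.48, SE 0.16, limma adjusted p 0.0314) and CCNE1 (1.95, SE 0.13, limma adjusted p 1.44e-05) were higher in KYSE510. CDK6 (-1.88, SE 0.14, limma adjusted p 1.91e-05), CDK4 (-0.48, limma adjusted p 0.000649) and CDK2 (-0.26, limma adjusted p 0.0197) were lower. CCND3 (-0.52, limma adjusted p 0.0703), CCNE2 (0.10), RB1 (-0.23) and E2F1 (-0.16) did not pass.

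All genes together had a median log2 difference of -0.20, or -0.02 with centred libraries; called genes numbered 4156 higher and 7041 lower, and 5417 and 5460 after centring. CDK2 was no longer called after centring (-0.08, limma adjusted p 0.488) or with voom (-0.04, limma adjusted p 0.701), nor without KYSE150 silenced 2 (0.0802), KYSE510 silenced 1 (0.0674) or KYSE510 silenced 2 (0.0605). CCND1 lost its call without KYSE150 silenced 1 (limma adjusted p 0.0663) or 2 (0.0923), KYSE510 silenced 1 (0.0566) or 3 (0.0579). Genes that gained a call were CCND3 without KYSE510 silenced 1 (limma adjusted p 0.0322), CCNE2 without KYSE510 silenced 2 (0.0417), and RB1 (0.0216) and E2F1 (0.0257) without KYSE150 silenced 1. CCNE1, CDK4 and CDK6 kept their call in each of the 6 fits without 1 library.

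Genes around each member were compared between lines in the same silenced libraries. Distances were taken between leftmost annotated positions, whatever the strand. Of genes within 500 kb of CCND2 by that measure, 10 were tested, with a median log2 difference of -0.49, where that of all genes was -0.20. The largest were CCND2-AS1 (-4.26) and C12orf4 (-1.11), both smaller than that of CCND2. CCND2-AS1 and PARP11 passed the filter through KYSE150 alone, and without them the median was -0.47. Of the other 8 genes 6 passed as lower in KYSE510 and none as higher, where 41.9% and 24.7% of all genes did. Around CDK6, 10 genes did not pass the filter through KYSE150 alone. Their median was -0.94, and 8 of them were lower and none higher, led by GATAD1 (-1.76) and RBM48 (-1.55).

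Around CCND1, 2 of 4 genes tested were higher in KYSE510, AP001888.1 (1.24) and ORAOV1 (0.84), with a median of 0.76, where 24.7% of all genes were higher. Around CCNE1, of 6 neighbours 1 was higher and 2 were lower, PLEKHF1 (-0.94) and RPL9P32 (-0.70), and the median was 0.01. RPL9P32 averaged 0.387 RPKM in silenced KYSE510, under the filter value, and 0.909 RPKM in silenced KYSE150. Medians around the other 6 genes ran from -0.53 at RB1 to 0.06 at CCNE2. DNA copy number was not measured, and its part in these differences was not tested.

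**Figure D4:**
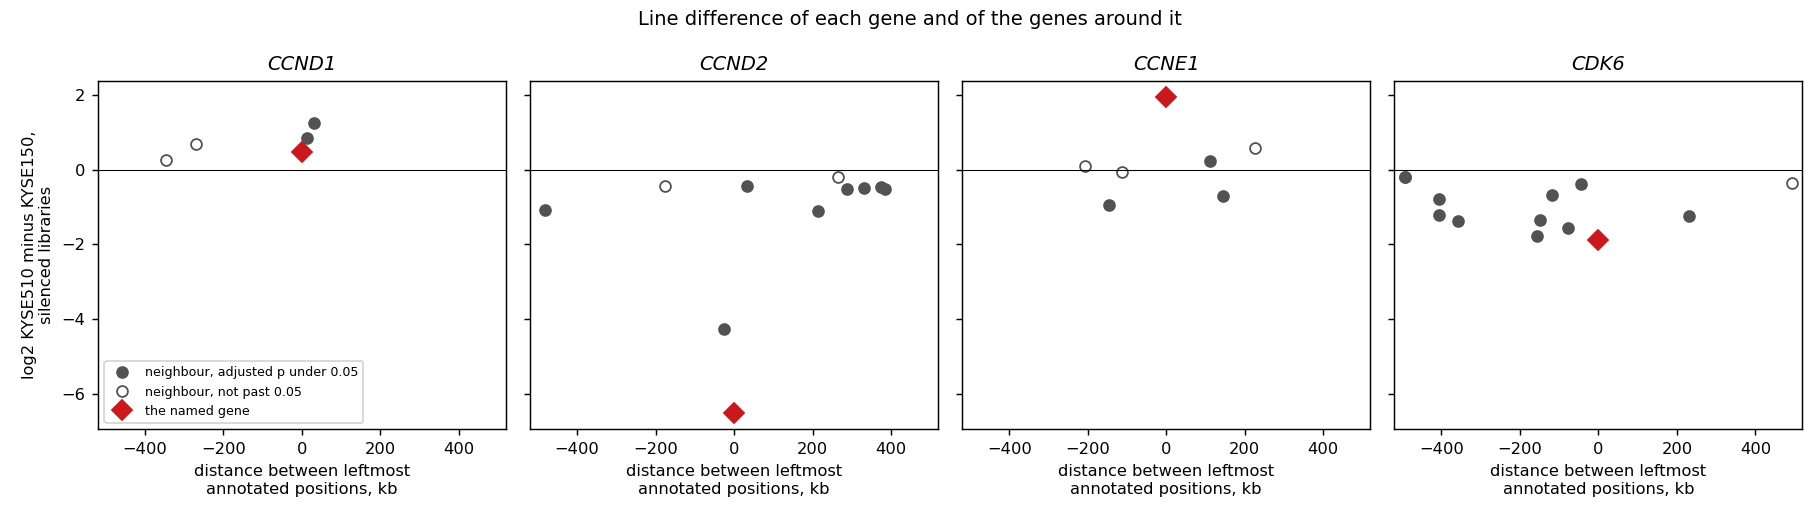
Log2 difference in RPKM, KYSE510 minus KYSE150 in silenced libraries, for each tested gene within 500 kb of CCND1, CCND2, CCNE1 and CDK6, by distance in kb between leftmost annotated positions; diamonds are the named genes and filled points passed limma's test. Neighbours of CDK6 and CCND2 lie mostly below 0, and those of CCNE1 lie around 0.01. Medians for CDK6 and CCND2 were -0.94 and -0.47 without the genes that passed the filter through KYSE150 alone, which are drawn too.

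Genes with the most similar pattern were sought over the 12 libraries after subtraction of the mean of each line, so likeness reads the spread within lines. The mean of each condition was not subtracted, so a change with silencing is part of the pattern. For CCND1 they were ORAOV1 (Pearson r 0.962), which shares exon bases with it, LY6K (0.949) and ZNF696 (0.945). For CCND2 they were PPAT (0.971), RAD23B (0.970) and NIPA1 (0.968), of which RAD23B rose in KYSE150 by 0.57 on the log2 scale (limma adjusted p 0.0467). CCND2 hardly varied in KYSE510 on this scale, so its matches rest mainly on KYSE150. A rise there is part of what selected RAD23B and is not a separate finding. For CCNE1 they were RARRES3 (0.934), TRIT1 (0.933) and IFIT3 (0.922), and for E2F1 TAMM41 (0.952), FAR2 (0.933) and RPL9P9 (0.931). Within the family the highest correlation was that of CCND2 with CDK6 (0.874) and the lowest that of CCNE2 with E2F1 (-0.276). The value for CCND2 and CDK6 also rests mainly on KYSE150, where both genes were higher in every silenced library than in every control. The points share libraries and depth, so these are descriptions.

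The inhibitors of these kinases came next in the pathway, and 6 of 7 listed were above the filter, CDKN1C having at most 1 read per library. None passed for silencing in either line, with median log2 changes of 0.27 in KYSE150 and 0.02 in KYSE510. CDKN2A, which encodes the CDK4 and CDK6 inhibitor p16, had the smallest p in KYSE150 (0.26, limma adjusted p 0.257), and CDKN1A, which encodes p21, in KYSE510 (0.62, limma adjusted p 0.809). With the replicate block CDKN1A passed in the mean over lines (limma adjusted p 0.0395), where 2.74% of all genes did.

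Between lines in silenced libraries, CDKN2A and CDKN2B passed the filter through KYSE150 alone, so they are described with no test. CDKN2A averaged 15.4 and 18.4 RPKM in control and silenced KYSE150, and the KYSE510 groups held 1 and 4 reads of it in all. CDKN2B averaged 2.40 RPKM in silenced KYSE150 and had 0 reads in KYSE510. CDKN2C would not have passed the filter on its silenced KYSE510 libraries either, where it averaged 0.366 RPKM with 11 to 36 reads. Its log2 difference of -2.98 is therefore a description too. Of the other inhibitors tested, CDKN2D (-0.65, limma adjusted p 0.0424) was lower in KYSE510 and CDKN1A was higher (0.81, limma adjusted p 0.0493). CDKN2D, like CDKN2A, CDKN2B and CDKN2C, encodes an INK4 protein. Counts of list genes past the test between lines are read against 24.7% of all genes higher and 41.9% lower in KYSE510.

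Among 11 further RB, E2F and DP genes none passed for silencing, with medians of 0.21 in KYSE150 and 0.03 in KYSE510. With the replicate block 3 passed in KYSE150, where 6.7% of all genes did. They were RBL1, an RB1 relative (0.31, limma adjusted p 0.0423 with the block and 0.102 without it), E2F3 (0.46, 0.0385 and 0.125) and the repressor E2F7 (0.40, 0.0355 and 0.131). Between lines 3 were higher in KYSE510, TFDP2, E2F2 and E2F3, and 5 were lower, with E2F4 (-0.96, limma adjusted p 0.000133), RBL2 (-1.21) and TFDP1 (-0.75) leading.

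Of 14 genes of CDK activation and cyclin turnover none passed, with medians of 0.06 and -0.05. SKP2, a ubiquitin ligase subunit that targets the inhibitor p27, averaged 12.1 and 15.9 RPKM in control and silenced KYSE150, a log2 change of 0.38 (limma adjusted p 0.0530 without the block and 0.0289 with it). FBXO31, a ligase subunit that targets cyclin D1, had the smallest p in KYSE510 (-0.17, limma adjusted p 0.851). Between lines 5 were higher and 4 lower in KYSE510, among them MNAT1 (1.15) and CCNH (-1.27), both subunits of the CDK-activating kinase.

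The 22 listed targets of E2F at G1/S stayed close to 0, with median log2 changes of 0.02 in KYSE150 and -0.04 in KYSE510. None passed limma's test and none had an unadjusted p under 0.05 in either line. PCNA, the sliding clamp of DNA replication, had the smallest p in KYSE150 (0.28, limma adjusted p 0.342). Between lines in silenced libraries 5 were higher and 5 lower in KYSE510. TYMS, thymidylate synthase, averaged 51.1 and 53.8 RPKM in control and silenced KYSE150 and 293 and 279 RPKM in KYSE510 (log2 difference 2.37, limma adjusted p 1.96e-06).

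Of 5 cyclins and kinases of S, G2 and M phase none passed for silencing, with medians of 0.09 and -0.04. Between lines CCNB1, the mitotic cyclin B1, was lower in KYSE510 (-1.31, limma adjusted p 0.00176), as was CCNB2. The 8 squamous markers had median log2 changes of 0.53 in KYSE150 and 0.30 in KYSE510, above those of all genes (0.08 and -0.02). None passed in a single line, and TP63 passed in the mean over lines (0.32, limma adjusted p 0.0483), where 0.539% of all genes did. With the block 6 passed in KYSE150, 1 in KYSE510 and 5 in the mean over lines. In the same fits 6.7%, 0.112% and 2.74% of all genes passed. The part of this marker shift in the changes of the G1 genes was not tested.

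**Figure D5:**
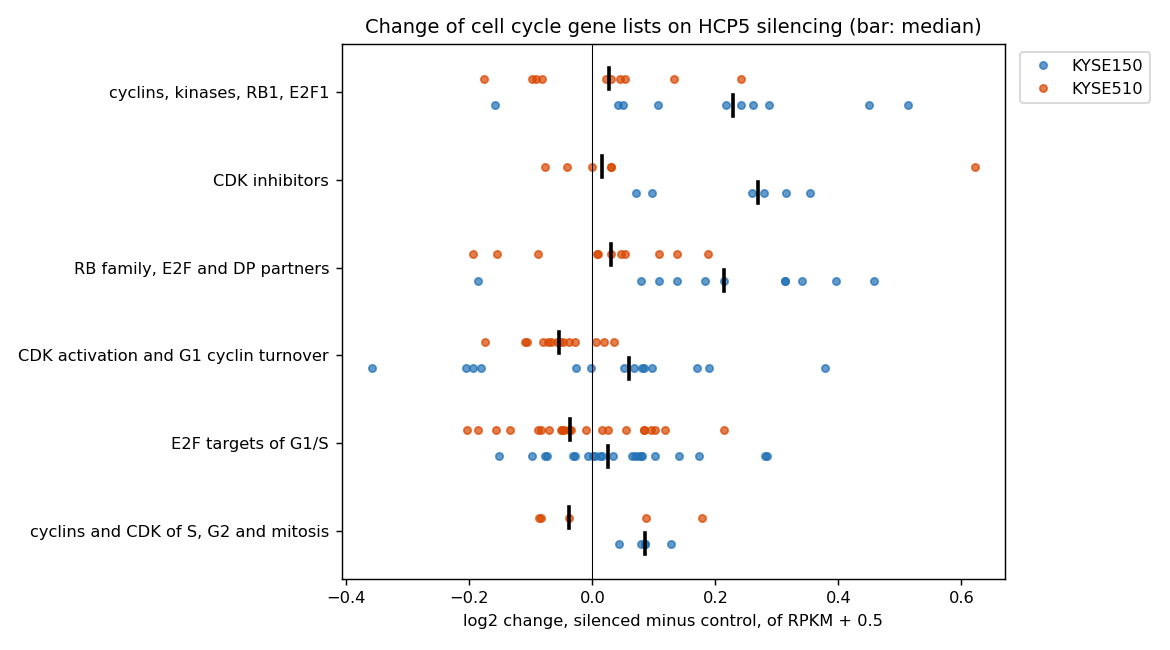
Log2 change with silencing for each tested gene among the 10 G1 genes and 5 lists of the pathway, as points by line; short bars mark medians. Medians of the 10 G1 genes lie at 0.23 in KYSE150 and 0.03 in KYSE510, and those of the E2F targets at 0.02 and -0.04.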

How the data were processed

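The deposited table gives RPKM for 38516 genes with summed exon length; per the submitters' processing notes the authors used HISAT2, DESeq and GRCh38, with versions not given in the sources used here. RPKM times length was a whole multiple of 1 step per library for 100% of values (tolerance 0.001), so reads were recovered. Limma 3.58.1 (R 4.3.3) was fitted with a mean-variance trend to log2(RPKM + 0.5) of 17823 genes with an RPKM of 0.5 or more in 3 or more libraries, with 4 group means over 12 libraries (8 residual degrees of freedom). The line difference was fitted to the 6 silenced libraries (16798 genes, 4 degrees of freedom). P-values were two-sided and Benjamini-Hochberg adjusted over all genes, with a threshold of 0.05. Fold changes on this scale understate those of low genes. The count fit used limma's voom with TMM factors. On simulated data with 200 genes changed by 1 on the log2 scale in KYSE150, among 17823 genes, 81.5% were recovered with 10 false calls. That change is larger than the change of any member with silencing, and the simulated noise was independent between libraries. Recovery of smaller changes was not tested.

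Same-numbered control and silenced libraries, numbered in the titles, had correlated deviations (r 0.147 to 0.415 in 6 pairs; other pairs -0.385 to 0.184), so the numbers were taken to pair libraries, and the fit with the replicate block is printed where it changed a call. Deviations were taken from group means, which pushes other pairs down where same-numbered ones are up. KYSE150 control 2 was closer to silenced 1 (0.184) than to silenced 2 (0.147). The pairing was thus chosen from these same values, and calls with the block rest on that choice. Chi-square statistics between replicates of a group came to 10.3 to 36.6 per gene, so none was a copy. The members and lists were chosen with earlier results of these data known. All 10 members are named; of each list, up to 3 genes past the threshold per direction and comparison, or the gene of smallest p; of neighbours, the 2 of largest difference; of likeness, the 3 highest correlations among genes of mean RPKM at least 1. Promoter sequences are from RefSeq. Python 3.11.15 with scipy 1.17.1 did the rest. The gene of smallest p of 1 list in KYSE510 is not reported here.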

Additional observations from a re-analysis of the deposited data

How the results depend on the processing

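Over all genes, calls for silencing in KYSE150 numbered 89, but 161 with voom, 1194 with the replicate block and 0 with the line's libraries alone. In KYSE510 they numbered 7, but 3 with a pseudocount of 0.1, 44 with no filter, 24 with voom, 20 with the replicate block and 2 with the line alone. For the mean over lines they numbered 96, but 175 with voom and 488 with the replicate block, and for the difference 0, but 10 with no filter. Members called in KYSE150 numbered 1, but 0 with a pseudocount of 0.1, voom or the line alone and 2 with the replicate block, and in the mean over lines 0 but 1 with the block. The replicate block changed no other member's call. Without 1 library at a time, calls over all genes ranged from 15 (without KYSE150 silenced 3) to 1291 (without KYSE150 control 3) in KYSE150, 2 to 7 in KYSE510, 43 to 140 in the mean and 0 to 4 in the difference. Members called ranged from 0 to 2 in KYSE150, with 2 in the fit of 1291 calls. Between lines, CCND2 did not pass the filter without 1 KYSE150 silenced library. In those fits 3 (without KYSE150 silenced 2) to 6 (without KYSE150 silenced 1) of the other 9 members were called. Of all genes 9244 of 15904 and 10289 of 15965 were called in the fits with 3 and with 6. With all silenced libraries 5 of the 9 were called, and 66.7% of all genes.

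Directions that turned were all of uncalled log2 changes, and the cause was not tested. In KYSE150, CCND1 was -0.0872 centred, -0.0629 with voom and -0.167 to 0.253 without 1 library, CCNE2 was -0.0232 centred, and E2F1 was -0.0801 centred, -0.060 with voom and -0.0577 to 0.152 without 1 library. In KYSE510 the ranges without 1 library were -0.00885 to 0.0523 for CCND2, -0.259 to 0.165 for CCND3, -0.103 to 0.133 for CCNE1, -0.0564 to 0.161 for CDK6, -0.0596 to 0.126 for RB1, -0.234 to 0.0574 for E2F1. Between silenced lines E2F1 was 0.0238 centred and 0.0557 with voom. By recovered reads the CDK4 share moved by -4.25 percentage points with silencing in KYSE150 and -1.65 in KYSE510. Without the filter the line difference of CCND1 lost its call (limma adjusted p 0.0770), and in a fit of all 12 libraries CCND1 did (0.0559) while CCND3 gained one (0.0329). Depth limits CCND2 in KYSE510, at 4 to 13 reads.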
